A study of Mus musculus with 19 samples.

Results

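Chemokines are small secreted proteins that draw leukocytes along a gradient, and chemokine receptors are the G protein-coupled receptors on the leukocytes that read it. The genes described here are all features whose symbol begins with Ccl, Cxcl, Xcl, Cx3cl, Ccr, Cxcr, Xcr or Cx3cr followed by a digit. This rule, which uses names and no measured value, took 58 of the 24557 features in each table, of which 39 encode ligands and 19 encode receptors. Their values were compared between mice fed freely and mice on calorie restriction, in cornea and conjunctiva, the latter being the mucous membrane that joins the eye to the lids.

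The study used RNA sequencing of the cornea and conjunctiva of C57BL/6 mice (C57BL/6J in the methods) to ask how calorie restriction (CR) alters the ocular surface relative to ad libitum feeding (AL). The 19 libraries comprised 5 AL and 5 CR libraries of the cornea and 4 AL and 5 CR libraries of the conjunctiva, as the labels give them. By the methods of the study the mice were inbred females, the corneal sample was epithelium obtained by scraping, the CR ration was cut in steps, and CR mice were given their food once a day before the dark phase. The titles of AL and CR libraries alike carry 6M and 50W, which the labels do not explain. The study ran the restriction in separate cohorts, and the labels do not say to which cohort a library belongs. In one of the cohorts the CR chow was enriched in vitamins and micronutrients, so that the amount of food, its composition and the time of feeding cannot be told apart. Libraries are named by diet and by the number in their title, so that AL 3 is the AL library with the number 3. Labels do not say whether libraries of the same number from the cornea and conjunctiva came from the same mouse.

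Chemokines fall into CC, CXC, XC and CX3C families by the spacing of their first cysteines. Inflammatory ligands such as Ccl2 and Cxcl1 are induced at sites of injury and recruit monocytes and neutrophils, whereas homeostatic ligands such as Cxcl12 and Cxcl13 position cells in resting tissue. Mucosal epithelia also release chemokines constitutively, and Cx3cl1 and Cxcl16 are made as membrane-anchored proteins that can bind leukocytes directly or be shed. At the ocular surface these ligands are known for guiding dendritic cells, macrophages, neutrophils and T cells into the epithelium and stroma.

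Between 10354125 and 14681223 reads were counted per cornea library and between 10726717 and 14433441 per conjunctiva library. Values are normalized counts, that is, reads divided by the size factor that the authors fitted within each tissue, and a library with 0 reads of a gene could have held up to 3 reads, or between 2.27 and 3.37 normalized counts. This floor covers counting error only. The corneal marker Krt12 averaged 306448 normalized counts in cornea AL libraries and 3006 in conjunctiva AL libraries, and the goblet cell mucin Muc5ac averaged 12.9 in the cornea and 4515 in the conjunctiva. Since the tables were scaled separately, such levels are set side by side without a test. Cornea AL 1 stood apart in lacrimal gland markers, whose summed level was 55045 there and between 48.3 and 1464 in the other 9 cornea libraries. It held the highest value of 2 chemokine or receptor genes, 1 of them with a mean above 10, whereas 9.24% of all genes tested peaked there. The part of lacrimal gland content in the chemokine values was not tested.

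The 250 bases upstream of the annotated start are shown for 4 members on which the results turn, namely Cx3cl1 of the cornea, the neighbouring genes Ccl6 and Ccl9 of the conjunctiva and Cxcl2, which was far above the rest in a single cornea library. The sequences are from RefSeq (GRCm38.p6), read 5′ to 3′ on the strand of the gene at chr8:94771930-94772179 (Cx3cl1, plus strand), chr11:83593088-83593337 (Ccl6, minus strand), chr11:83578637-83578886 (Ccl9, minus strand) and chr5:90903649-90903898 (Cxcl2, plus strand). Capitals mark a match on either strand to TATAAA, the kappa B motif (GGG and CC separated by any 5 bases), the AP-1 motif TGANTCA, the E-box CACGTG or the D-box TTATGNAA, where N is any base.
Cx3cl1: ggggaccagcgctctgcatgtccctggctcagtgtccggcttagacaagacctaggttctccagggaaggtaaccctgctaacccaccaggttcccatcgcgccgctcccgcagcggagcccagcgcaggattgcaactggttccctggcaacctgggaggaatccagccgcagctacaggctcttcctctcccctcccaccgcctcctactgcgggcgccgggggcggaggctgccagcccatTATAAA
Ccl6: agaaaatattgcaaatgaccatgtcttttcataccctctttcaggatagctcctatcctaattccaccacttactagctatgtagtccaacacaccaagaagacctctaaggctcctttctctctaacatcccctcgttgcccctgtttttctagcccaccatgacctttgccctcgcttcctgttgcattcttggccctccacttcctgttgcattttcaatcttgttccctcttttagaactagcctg
Ccl9: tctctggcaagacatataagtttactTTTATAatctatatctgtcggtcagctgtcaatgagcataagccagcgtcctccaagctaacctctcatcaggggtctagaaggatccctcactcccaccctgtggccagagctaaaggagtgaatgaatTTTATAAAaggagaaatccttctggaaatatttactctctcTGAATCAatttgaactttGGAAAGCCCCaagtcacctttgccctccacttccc
Cxcl2: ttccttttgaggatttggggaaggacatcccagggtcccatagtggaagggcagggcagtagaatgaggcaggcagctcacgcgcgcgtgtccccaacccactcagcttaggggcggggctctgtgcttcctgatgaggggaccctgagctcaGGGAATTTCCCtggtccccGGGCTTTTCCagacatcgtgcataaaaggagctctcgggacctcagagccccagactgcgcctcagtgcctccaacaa
The Cx3cl1 window ended in TATAAA, directly before the annotated start, and none of the other motifs. No motif matched in the Ccl6 window, whereas the window of Ccl9 held 3 TATAAA matches, of which a pair overlapped on opposite strands, an AP-1 match and a kappa B match. The Cxcl2 window held 3 kappa B matches, of which a pair overlapped. Promoter sequence was found for 42 of the 58 genes, with 49 starts. Among these windows the kappa B motif was present in 53.1%, against 45.8% of all 32851 mouse promoters in the RefSeq set. TATAAA was present in 26.5% against 12.4%, AP-1 in 12.2% against 6.75%, the E-box in 4.08% against 6.02% and the D-box in 2.04% against 3.07%. A match is a string of letters and not evidence that a factor binds there.

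The members differed in how widely they were detected. In the conjunctiva, 33 members had a mean above 10 normalized counts over the 9 libraries, among them Cxcl17, Ccl6, Cx3cl1, Cxcl12, Cxcl16, Ccl11, Cxcl13, Ccr2, Ccl8, Cxcl5, Ccl9, Cx3cr1, Cxcl14, Ccr9, Cxcl1, Ccl24, Cxcl2, Ccl5, Cxcr6, Cxcr4, Ccl7, Ccl27a, Cxcr2, Ccl17, Ccl2, Ccr1, Ccr3, Cxcl9, Cxcl10, Xcl1, Ccl28 and Cxcl3. A further 15 had reads but a mean below that level, from Ccl12 at 9.54 to Cxcr5 at 0.536. In the cornea, 15 members were above 10 over the 10 libraries, namely Cx3cl1, Cxcl16, Cxcl2, Ccl6, Ccr9, Cxcl17, Cxcl1, Cxcl14, Cx3cr1, Ccl4, Ccr1, Ccl3, Ccr6, Ccl25 and Ccl27a. Another 28 cornea members lay below that level, from Cxcl9 at 9.78 and Ccr2 at 9.57 to Ccl11 and Ccl2 at 0.109 each. The remaining 10 members, Ccl19, Ccl21a, Ccl21b, Ccl21c, Ccl26, Ccl27b, Ccr1l1, Ccr8, Cxcl15 and Cxcr1, had 0 reads in all 19 libraries. In the cornea 15 members had 0 reads throughout, as Ccl1, Ccl12, Ccr4, Cxcr3 and Cxcr5 joined these 10. Ccl21a, Ccl21b and Ccl21c are near-identical copies, as are Ccl27a and Ccl27b, so that reads shared between copies may have been dropped or split in counting.

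**Figure D1:**
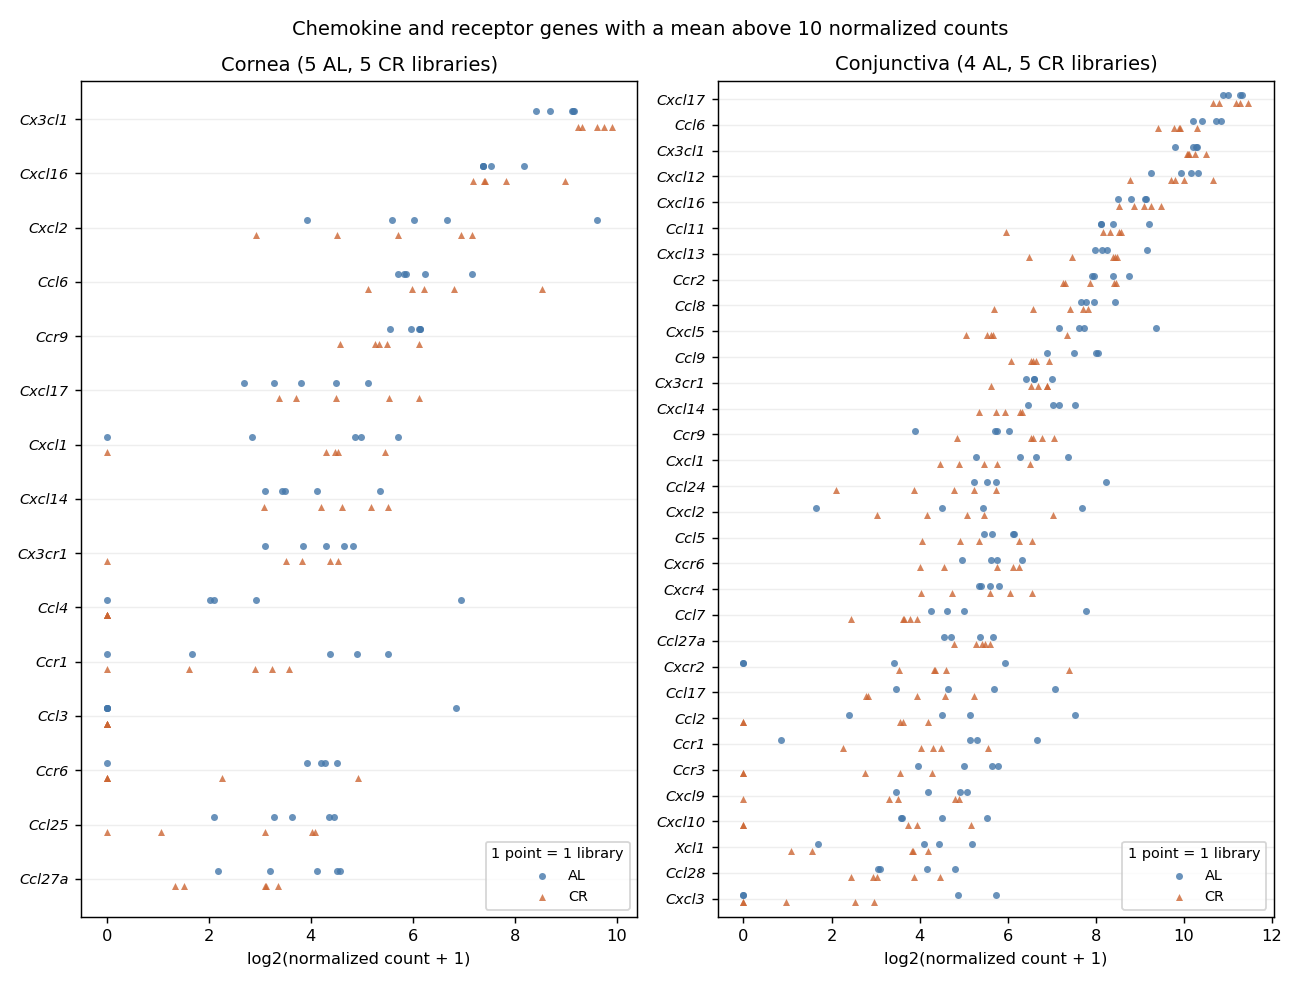
Level of chemokine and receptor genes with a mean above 10 normalized counts, in each library, as log2(normalized count + 1) on the horizontal axis, for the cornea (15 genes, left) and the conjunctiva (32 of its 33 genes, right), ordered by mean. Circles are AL libraries and triangles are CR libraries; the conjunctiva list is longer and reaches higher values, and single AL circles lie far to the right for Cxcl2, Ccl4 and Ccl3 of the cornea and for Ccl24, Ccl7 and Ccl2 of the conjunctiva.

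Levels of different genes were compared per kilobase of the longest protein-coding transcript in the GENCODE annotation of GRCm38. The type of library is not settled by the sources used here, and counts from the 3′ end of transcripts would not scale with length. In the conjunctiva, Cxcl17, a mucosal chemokine, stood first at 2934 ± 542 normalized counts per kilobase (SD, n = 9), above the range of Ccl6, a myeloid CC chemokine, at 834 ± 266. The next genes were Ccl8 at 384 ± 167, Cx3cl1 at 354 ± 46.6, the eotaxin Ccl11 at 297 ± 128 and the B cell attractant Cxcl13 at 262 ± 116 per kilobase, and their ranges overlapped. In the cornea, Cx3cl1 stood first at 189 ± 57.4 normalized counts per kilobase (SD, n = 10) and was followed by Cxcl16 at 80.7 ± 40.4, Cxcl2 at 72.8 ± 125 and Ccl6 at 71.6 ± 68.2. The ranges of these 4 corneal genes overlapped.

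No member passed the test for a diet effect in either tissue. A gene was called where limma (moderated with trend and robust variance) gave a Benjamini-Hochberg adjusted p under 0.05 over all genes with a mean of at least 10, together with a fold change over 1.5. In the conjunctiva 0 of 33 members were called, against 0.359% of the 13929 genes tested (31 higher and 19 lower in CR). In the cornea 0 of 15 members were called, against 1.22% of the 12278 genes tested (92 higher and 58 lower). At an unadjusted p under 0.05, 9 of 33 members of the conjunctiva were past the threshold, all lower in CR (Ccl6, Ccl9, Cxcl5, Cxcl14, Ccr3, Ccl7, Ccl24, Ccl2 and Ccl8), against 9.4% of all genes tested there. Of these 9, Ccr3 and Ccl2 reached the minimum mean of 10 through AL alone. In the cornea 1 of 15 was past the unadjusted threshold, Cx3cl1, which was higher in CR, against 18.1% of all genes. Among the tested members of the conjunctiva, values of AL and CR were fully separate for 2, Cxcl14 and Ccl7, against 3.87% of genes tested. In the cornea they were separate for 1 tested member, Cx3cl1, against 3.97%.

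In the conjunctiva 27 of 33 members had a log2 change below 0, against 52% of all genes tested, and their median log2 change was −0.55, against −0.02 over all genes. Of these 33, Ccl2, Ccr3, Cxcl3 and Xcl1 reached the minimum mean of 10 through AL alone, which favours a lower CR value, and 23 of the 29 others were below 0, with a median of −0.42. With voom on the recovered reads, 28 of 33 members and 64.1% of all genes were below 0, with medians of −0.64 and −0.11. In the cornea 9 of 15 were below 0, against 53.1% of all genes, with a median of −0.90 against −0.03. However, 6 of the 15 cornea members (Ccl3, Ccl4, Ccl25, Ccl27a, Ccr1 and Ccr6) reached the minimum mean through AL alone, which favours a lower CR value, and these counts support no direction. Of the 9 others, 3 were below 0 and the median was 0.19. Setting Ccl3 and Ccl4, which had 0 reads in every CR library, at the floor of 3 reads per library left the corneal median at −0.90. Both genes lay below the median either way, so that it could not move. Without AL 3, 10 members were tested in the cornea, of which 4 were below 0, and the median was 0.27. With all libraries the same 10 had 4 below 0 and a median of 0.13. Members share cells, pathways and libraries, so that these counts describe the list and are not independent replicates. In bulk tissue, fewer cells of a type and less RNA per cell cannot be told apart.

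**Figure D2:**
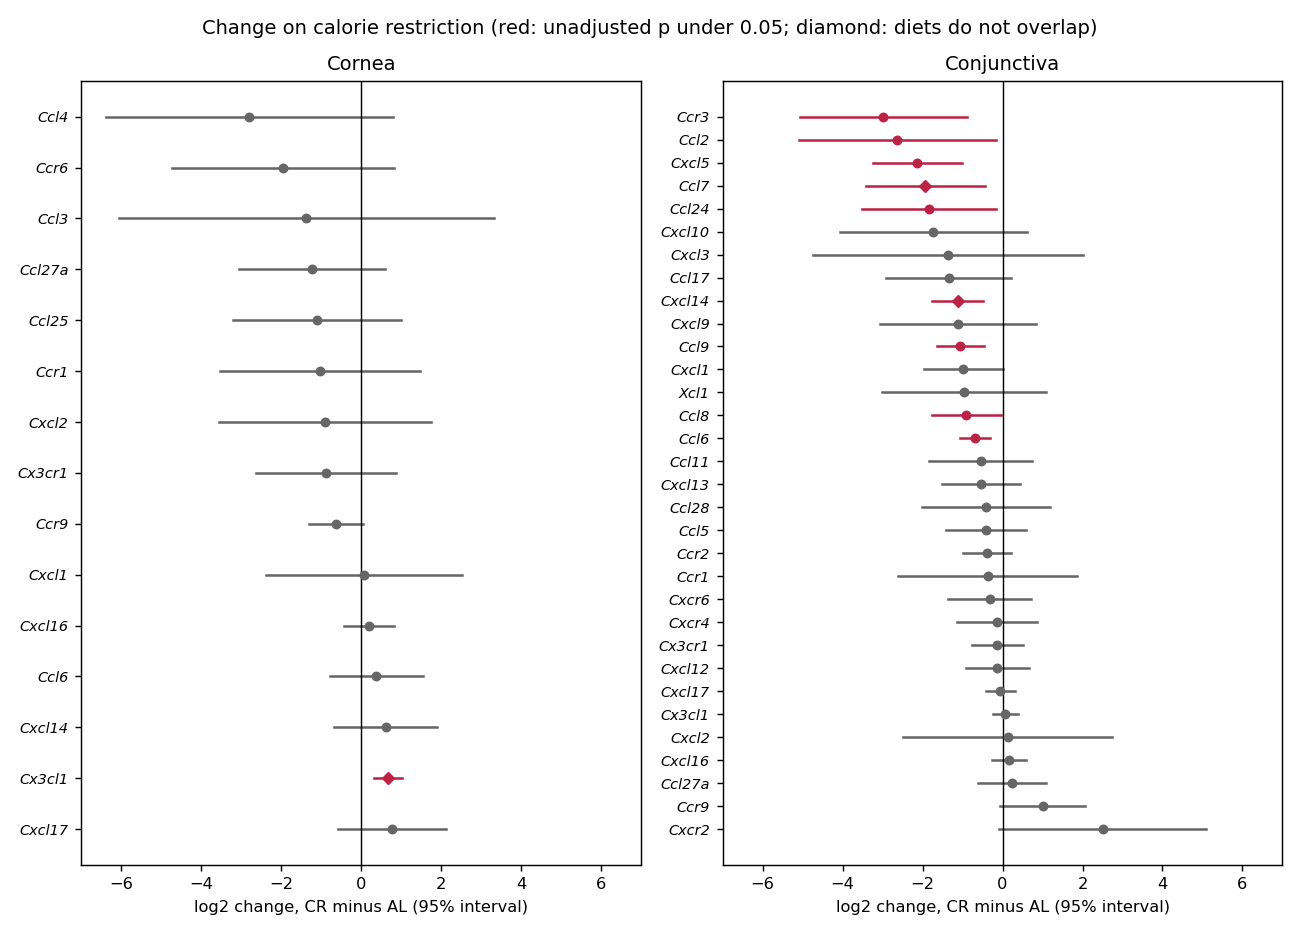
Change of tested members on calorie restriction, as the difference of mean log2(normalized count + 1), CR minus AL, with its 95% interval from limma, for the cornea (15 genes, 5 AL and 5 CR libraries) and the conjunctiva (32 of its 33 genes, 4 AL and 5 CR libraries). Red marks an unadjusted p under 0.05 and diamonds mark genes whose diets do not overlap; 9 red genes lie left of 0 in the conjunctiva and Cx3cl1 alone is red, to the right of 0, in the cornea.

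Among the neutrophil-attracting ligands of Cxcr2 in the conjunctiva, Cxcl5 had the lowest p. Cxcl5 stood at 143, 659, 196 and 213 normalized counts in AL 1, 3, 4 and 5 and at 49.7, 32.4, 48.3, 45.1 and 162 in CR 1 to CR 5. All AL libraries but AL 1 were above every CR library, and CR 5 lay between AL 1 and AL 4. Its log2 change was −2.13 ± 0.51 (SE; limma adjusted p = 0.138). It was called without CR 5, at a log2 change of −2.51 (limma adjusted p = 0.00859), and with array weights (adjusted p = 0.0196), and without AL 3 the change was −1.67 (adjusted p = 0.171). Cxcl1, the mouse counterpart of the GRO chemokines, averaged 94.9 ± 53.3 in AL (SD, n = 4) and 47.1 ± 26.9 in CR (SD, n = 5), with overlapping libraries. Cxcl2 and Cxcl3 varied more within a diet than between diets, as Cxcl2 ranged from 2.15 to 205 in AL and from 7.17 to 129.7 in CR and Cxcl3 from 0 to 52.7 and from 0 to 6.82. Cxcr2, the receptor of these ligands, was at 0, 60.6, 9.68 and 0 in the AL libraries and at 23.4, 19, 10.6, 19.5 and 167 in CR. Its log2 change of 2.50 ± 1.20 missed the threshold (limma adjusted p = 0.540). The summed neutrophil markers in CR 5, where Cxcr2 and Cxcl5 were at their CR maximum, were 25.5, within the 24.6 to 69.2 of the other CR libraries. Of the 6 listed markers, Ly6g and Mpo had 0 reads in every conjunctiva library. The part of neutrophil content in the Cxcr2 and Cxcl5 values was not tested.

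The monocyte chemoattractant proteins Ccl2, Ccl7, Ccl8 and Ccl12 are ligands that recruit monocytes mainly through Ccr2. The 3 tested members had lower CR means, each at an unadjusted limma p under 0.05, against 9.4% of all genes tested. Of these 3, Ccl2 reached the minimum mean through AL alone, which favours a lower CR value. Without AL 3, none of the 3 was past that threshold. Ccl7 stood at 31.4, 218, 18.3 and 23.6 normalized counts in the AL libraries and at 12.7, 11.4, 11.6, 14.3 and 4.43 in the CR libraries. The diets did not overlap, AL 4 and CR 4 being the closest pair, and AL 3 was far above all others. The log2 change was −1.93 ± 0.70 (limma adjusted p = 0.349), and without AL 3 it was −1.15 ± 0.69 (limma adjusted p = 0.733). Ccl8 stood at 250.0, 345, 217 and 201 in AL and at 170.5, 95.2, 227, 209 and 51.0 in CR, so that CR 3 and CR 4 lay within the AL range (log2 change −0.91 ± 0.39, limma adjusted p = 0.499). Ccl2 stood at 21.7, 185, 4.30 and 34.5 in AL and at 10.7, 0, 17.4, 11.3 and 0 in CR, with AL 4 inside the CR range (log2 change −2.63 ± 1.16, limma adjusted p = 0.493, and −1.75 ± 1.27 without AL 3, adjusted p = 0.794). Ccl12 was below the filter at a mean of 9.54. Their receptor Ccr2, which marks inflammatory monocytes, was at 248, 239, 430.3 and 338 in AL and at 156, 232, 152, 354 and 341 in CR. CR 4 and CR 5 of Ccr2 lay within the AL range (log2 change −0.39 ± 0.28, limma adjusted p = 0.707).

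Ccr3, the eotaxin receptor of eosinophils, had the lowest log2 change among the tested members of the conjunctiva. It stood at 31.4, 14.6, 53.8 and 49.1 normalized counts in the AL libraries and at 10.7, 0, 5.79, 18.4 and 0 in the CR libraries. Only CR 4 was above the lowest AL library, AL 3. The log2 change was −2.98 ± 0.99 (limma adjusted p = 0.286), and since CR 2 and CR 5 had 0 reads it depends on the added count of 1. Of the eotaxins that bind it, Ccl11 stood at 276, 592, 333 and 276 in AL and at 371, 318, 380.4, 285 and 60.9 in CR, and the diets overlapped (log2 change −0.55 ± 0.56, limma adjusted p = 0.821). Ccl24 was at 37.0, 302, 52.7 and 45.4 in AL and at 13.6, 26.7, 36.7, 52.3 and 3.32 in CR, with AL 3 above all others and CR 4 within the AL range. Its log2 change was −1.84 ± 0.77 (limma adjusted p = 0.470), and −1.16 ± 0.71 without AL 3 (limma adjusted p = 0.735).

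The macrophage-associated CC ligands Ccl6 and Ccl9, neighbours on chromosome 11, had lower CR means that did not pass the test. Ccl6 stood at 1181, 1834, 1356 and 1703 normalized counts in the AL libraries and at 876, 682, 957, 967 and 1259 in the CR libraries. Only CR 5 reached into the AL range, above AL 1. The log2 change was −0.68 ± 0.18 (limma adjusted p = 0.139), and it was called without CR 5 (−0.79, adjusted p = 0.0379) and with array weights (−0.74, adjusted p = 0.0295), and without AL 3 it was −0.59 (adjusted p = 0.350). Ccl9 stood at 117, 264, 182 and 257 in AL and at 91.6, 66.6, 123, 94.3 and 99.7 in CR, where CR 3 alone exceeded AL 1. Its log2 change of −1.06 ± 0.28 had the smallest adjusted p among the members of this tissue (limma adjusted p = 0.136). Ccl6 overlaps an annotated gene on the opposite strand, E230016K23Rik, and whether counting used strand is not given in the sources used here. Ccl5, a ligand made by T and NK cells, averaged 57.7 ± 13.5 in AL and 50.7 ± 32.5 in CR, with overlapping diets. Ccr1, which binds several of these ligands, ranged from 0.804 to 101 in AL and from 3.81 to 46.3 in CR.

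**Figure D3:**
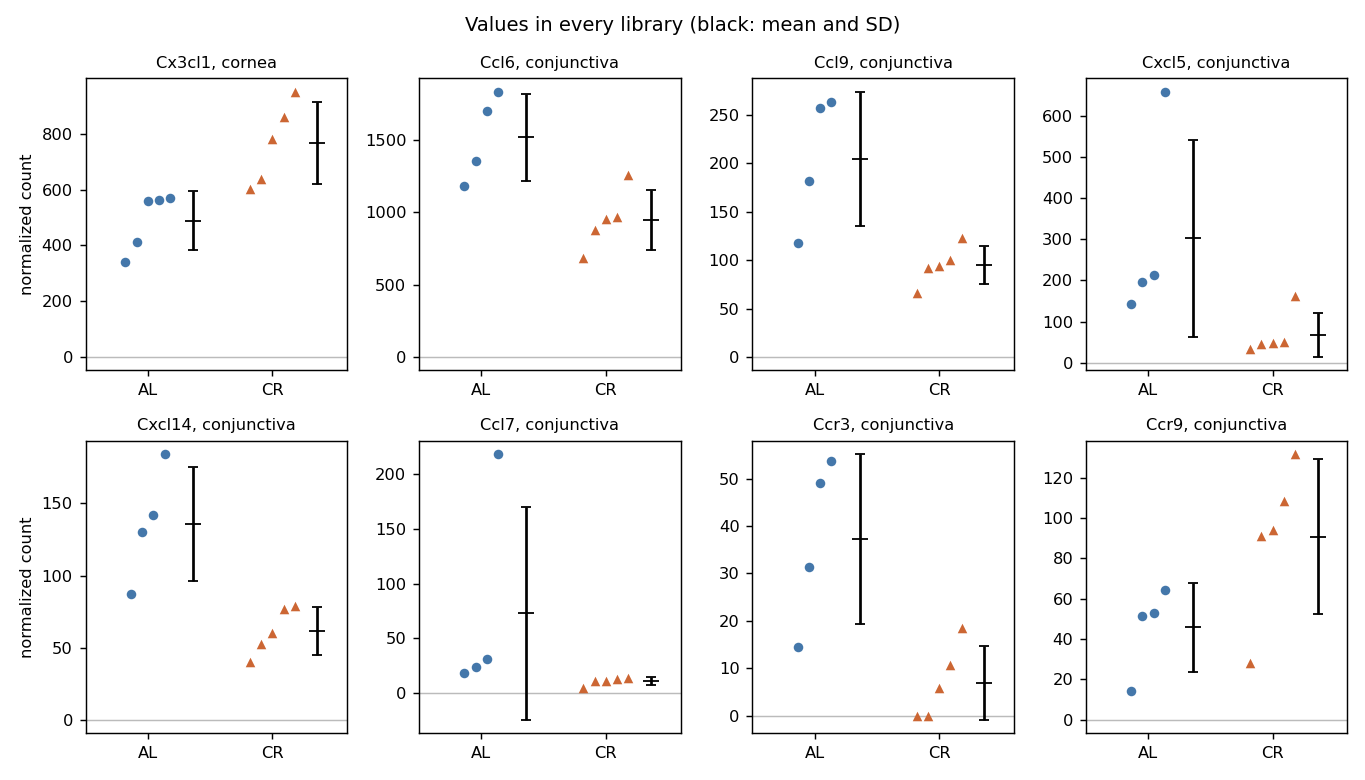
Normalized counts in every library for Cx3cl1 of the cornea and for Ccl6, Ccl9, Cxcl5, Cxcl14, Ccl7, Ccr3 and Ccr9 of the conjunctiva, each on its own linear axis, with AL as circles, CR as triangles and the mean and SD in black. The diets are separate for Cx3cl1, Cxcl14 and Ccl7, a single CR library reaches into the AL range for Ccl6, Ccl9, Cxcl5 and Ccr3, and Ccr9 has higher CR values with overlap.

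None of the 4 tested epithelial and mucosal ligands of the conjunctiva passed the test. Cxcl14, an epithelial chemokine linked to dendritic cell and macrophage recruitment, stood at 130.2, 184, 87.1 and 142 normalized counts in AL and at 60.4, 52.4, 79.2, 76.8 and 39.9 in CR. The diets did not overlap, with CR 3 just under AL 4. The log2 change was −1.12 ± 0.30 (limma adjusted p = 0.157), and without AL 3 it was −0.96 ± 0.33. Cxcl17 stood at 2503, 2061, 1902 and 2579 in AL and at 2495, 2317, 1785, 1612 and 2838 in CR. CR held both the highest and the lowest library of Cxcl17, and its log2 change of −0.05 had a 95% interval from −0.42 to 0.32. Ccl27a, a skin and mucosal T cell attractant, averaged 34.4 ± 12.7 in AL and 39.6 ± 8.04 in CR, and Ccl28 averaged 14.7 ± 9.33 and 10.6 ± 6.85.

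The membrane-anchored ligands of the conjunctiva had log2 changes close to 0 between diets. Cx3cl1 stood at 1243, 1186, 897 and 1258 normalized counts in AL and at 1458, 1113, 1078, 1099 and 1230.1 in CR, a log2 change of 0.06 with a 95% interval from −0.25 to 0.38. Its receptor Cx3cr1, found on macrophages, averaged 101 ± 18.8 in AL and 95.5 ± 28.8 in CR. Cxcl16 stood at 564, 560.0, 443 and 361 in AL and at 545, 614, 369.8, 468 and 719 in CR, a log2 change of 0.16 with an interval from −0.26 to 0.58. Its receptor Cxcr6 averaged 52.8 ± 20.5 and 47.0 ± 27.0. Libraries of the diets overlapped for all 4 genes.

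Of the 6 homeostatic ligands, Cxcl12 and Cxcl13 were detected in the conjunctiva and varied between libraries of a diet, and the other 4 (Ccl19, Ccl21a, Ccl21b and Ccl21c) had 0 reads. Cxcl12, the stromal ligand of Cxcr4, stood at 1287, 614, 978 and 1142 normalized counts in AL and at 896, 839, 1634, 1025 and 438 in CR. CR 3 was the highest and CR 5 the lowest of the 9 libraries (log2 change −0.13 ± 0.35, limma adjusted p = 0.940). Cxcl13 was at 284, 304, 254 and 569.6 in AL and at 346, 174, 360.1, 333 and 88.7 in CR, again with CR 5 lowest (log2 change −0.54 ± 0.44, limma adjusted p = 0.758). CR 5 was also the lowest library for Ccl11 and Ccl8, and its summed fibroblast markers were the lowest of the tissue at 27059, against 30179 to 61871 elsewhere. The part of fibroblast content in these values was not tested. Cxcr4 averaged 45.8 ± 6.96 in AL and 49.5 ± 31.3 in CR, with the AL libraries inside the CR range. The Cxcr3 ligands Cxcl9 and Cxcl10, which are induced by interferon, averaged 22.3 ± 10.5 and 22.3 ± 16.1 in AL and 15 ± 12.4 and 12.3 ± 14.2 in CR, with overlap. The T cell and dendritic cell attractants Ccl17 and Xcl1 averaged 54.8 ± 55.8 and 18.7 ± 13.7 in AL and 17.2 ± 12.9 and 9.42 ± 7.39 in CR, also with overlap.

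The CC ligand cluster on chromosome 11 (chr11:82035577-83664683, GRCm38.p6) holds 11 members, of which 7 were tested in the conjunctiva. All 7 had a log2 change below 0, against 52% of all genes tested, and the median was −0.91. At an unadjusted limma p under 0.05 there were 5 of them, against 9.4% of all genes tested. These 5 are among the 9 named above. Of the 5, Ccl2 reached the minimum mean through AL alone, which favours a lower CR value. Without AL 3, Ccl2, Ccl7 and Ccl8 were not past that threshold. In the CXC ligand cluster on chromosome 5 (chr5:90759298-92363296), 5 of 6 tested members were below 0, with 1 past the unadjusted threshold and a median of −1.23, beside 27 of 33 for the members as a whole. Cxcl3, a member of this cluster that was below 0, also reached the minimum mean through AL alone. Among the receptors, Ccr9, the receptor of the gut-type ligand Ccl25, had a higher mean in CR. Ccr9 stood at 53.1, 51.6, 14.0 and 64.5 normalized counts in AL and at 131, 94.2, 28, 91.2 and 109 in CR. All CR libraries but CR 3 were above every AL library (log2 change 1.0 ± 0.50, limma adjusted p = 0.547). It overlaps Lztfl1 and Slc6a20a on the opposite strand, and reads of overlapping genes cannot be assigned without strand.

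Cx3cl1 was the only member of the cornea with an unadjusted p under 0.05. It stood at 562, 412, 571, 559 and 339.9 normalized counts in AL 1 to AL 5 and at 782, 862, 952, 601 and 639 in CR 1, 2, 3, 4 and 7. Every CR library was above every AL library, the closest pair being CR 4 and AL 3. The log2 change was 0.66 ± 0.17 (95% interval 0.31 to 1.01, a 1.58-fold higher level), and its limma adjusted p of 0.0540 missed the threshold. The call was made under 6 alternatives: an added count of 10 (adjusted p = 0.0479), a minimum of 50 on the mean (0.0460), array weights (0.0127), and without AL 4 (0.0242), CR 4 (0.0380) or CR 7 (0.0445), all by limma. In the other alternatives it was not called, with adjusted p up to 0.193 (each library's share of undetected genes as covariate), 0.188 with the replicate block, and 0.148, 0.173 and 0.161 without AL 2, AL 5 and CR 3, by limma. Cx3cr1, its receptor, was at 18.7, 7.65, 24.0, 27.4 and 13.4 in AL and at 19.7, 10.4, 0, 13.3 and 22.3 in CR, with overlapping diets (log2 change −0.90 ± 0.84, limma adjusted p = 0.599). It overlaps several other annotated genes.

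The membrane-anchored ligand Cxcl16, the myeloid ligand Ccl6 and the epithelial and mucosal ligands of the cornea did not pass the test. Cxcl16 stood at 165, 291, 183, 164 and 165 normalized counts in AL and at 227, 168, 143, 169.6 and 503 in CR, where CR 7 was well above the rest. Its log2 change was 0.19 ± 0.29 and turned to −0.11 without CR 7. Ccl6 was at 57.2, 74.3, 143, 51.3 and 55.6 in AL and at 112, 33.9, 73.5, 62.3 and 368 in CR, and its log2 change of 0.37 ± 0.53 likewise turned to −0.12 without CR 7. Cxcl17 was at 5.50, 8.74, 13.1, 33.6 and 21.6 in AL and at 12.0, 9.42, 68.2, 21.5 and 45.5 in CR (log2 change 0.76 ± 0.65, limma adjusted p = 0.557). Cxcl14 was at 9.90, 16.4, 7.64, 39.8 and 10.3 in AL and at 35.0, 23.6, 44.7, 17.4 and 7.43 in CR (log2 change 0.61 ± 0.62, limma adjusted p = 0.631). The diets overlapped for all 4 of these genes. Ccl27a was at 16.5, 21.8, 22.9, 3.54 and 8.24 in AL and at 7.67, 7.54, 1.52, 9.20 and 1.86 in CR (log2 change −1.24 ± 0.87, limma adjusted p = 0.467), and AL 4 and AL 5 lay within the CR range. Ccl25, the ligand of Ccr9, averaged 12.7 ± 7.40 in AL and 7.97 ± 7.55 in CR. Ccl25 and Ccl27a overlap Elavl1 and Il11ra1 on the opposite strand.

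Among the inflammatory ligands of the cornea, Cxcl2, Ccl3 and Ccl4 were highest in AL 3 and Cxcl1 was not. Cxcl2 stood at 63.8, 101, 784, 14.1 and 47.4 normalized counts in AL and at 21.9, 6.60, 51.5, 122 and 142 in CR. AL 3 alone exceeded the highest CR library (log2 change −0.91 ± 1.17, limma adjusted p = 0.722). Ccl4 was at 6.60, 3.28, 122, 0 and 3.09 in AL and had 0 reads in all 5 CR libraries, and Ccl3 was at 115 in AL 3 and had 0 reads in the other 9 libraries. Ccl3 and Ccl4 are ligands made by activated myeloid cells. Against the floor of 3 reads per library, the AL mean of Ccl4 was at least 8.19-fold higher and that of Ccl3 at least 6.94-fold higher, and both rested on AL 3. Cxcl1 was at 30.8, 51.3, 28.4, 0 and 6.18 in AL and at 18.6, 0, 21.2, 42.9 and 22.3 in CR, a log2 change of 0.07 whose 95% interval ran from −2.38 to 2.52. AL 4 and CR 2 had 0 reads of Cxcl1, and an interval this wide does not show that the diets were alike.

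Receptors were sparse in the cornea, and none of the 4 tested passed the test. Ccr9 stood at 61.6, 45.9, 69.9, 69.0 and 70.0 normalized counts in AL and at 39.4, 68.8, 22.7, 43.9 and 37.1 in CR. CR 2 was within the AL range and the other CR libraries were below every AL library (log2 change −0.63 ± 0.32, limma adjusted p = 0.313). Ccr6, a receptor of dendritic cells and Th17 cells, was at 14.3, 17.5, 21.8, 0 and 18.5 in AL and at 29.6, 3.77, 0, 0 and 0 in CR. CR 1 had the highest Ccr6 value of all, and AL 4 had 0 reads (log2 change −1.95 ± 1.32, limma adjusted p = 0.450). Ccr1 averaged 19.1 ± 18.7 in AL and 5.60 ± 4.52 in CR.

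The diet effect was compared between tissues for the 11 members tested in both. The corneal log2 change of limma was subtracted from the conjunctival one, and the result was tested by a t test with Satterthwaite's degrees of freedom. This test takes the tissues as independent. By the methods of the study several tissues were taken from each mouse, and libraries of the same mouse may be shared between tissues, which the test leaves out. No member passed at an adjusted p under 0.05, against 0.0168% of the 11929 genes tested in both tissues, and 3 had an unadjusted p under 0.05, against 7.48%. Ccr9 had a difference of 1.64 ± 0.59 (t test, adjusted p = 0.515), being lower in CR in the cornea and higher in the conjunctiva. Cx3cl1 had a difference of −0.59 ± 0.22 (t test, adjusted p = 0.515) and Cxcl14 of −1.73 ± 0.69 (t test, adjusted p = 0.556), and both had the higher log2 change in the cornea. Cxcl16 had log2 changes of 0.19 and 0.16, a difference of −0.03 with a 95% interval from −0.76 to 0.70.

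High values clustered in single libraries. Of the 48 conjunctiva members with reads, 24 had their highest value in AL 3, and of the 33 above 10 it was 17, whereas 14.0% of all genes tested peaked in that library. CR 5, in which 20.5% of all genes tested peaked, held the highest value of 4 members. In the cornea AL 3 was highest for 16 of 43 members with reads and for 5 of the 15 above 10, whereas 7.99% of all genes tested peaked there. These shares of all genes cover only genes with a mean of at least 10, unlike the counts over members with reads. Of the 5 in the cornea, Ccl3, Ccl4, Ccr1 and Ccl27a did not reach the minimum mean without AL 3. They entered the count through their high value in that library, as did Cxcl3 in the conjunctiva. The cytokine Il1b, an inducer of these chemokines, was at 272 normalized counts in conjunctiva AL 3 and between 10.8 and 52.1 in the other 8 libraries, and at 138 in cornea AL 3 and between 0 and 20.8 in the other 9. It was singled out after its values were seen, and the other inducers were mixed. Tnf at 57.2 and Il1a at 32.5 in conjunctiva AL 3 were the lowest of the AL libraries there. Il6, in contrast, was highest in conjunctiva AL 3 at 14.6, where AL 1 had 2.41. Tnf was highest in cornea AL 3 at 223, just above cornea CR 7 at 220. Neutrophil markers summed to 20.7 in cornea AL 3 and to 101 in conjunctiva AL 3, where AL 4 had 107. The part of these in the chemokine values was not tested. Without AL 3, 25 of 32 tested members of the conjunctiva were below 0 with a median of −0.50, against 51.6% of all genes, and 6 had an unadjusted p under 0.05, against 7.88%, 5 of them lower (Cxcl5, Ccr3, Ccl6, Ccl9 and Cxcl14) and Cxcr2 higher at 3.71 ± 1.08 (limma adjusted p = 0.250). Ccl2, Ccl7, Ccl8 and Ccl24 were no longer past that threshold.

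**Figure D4:**
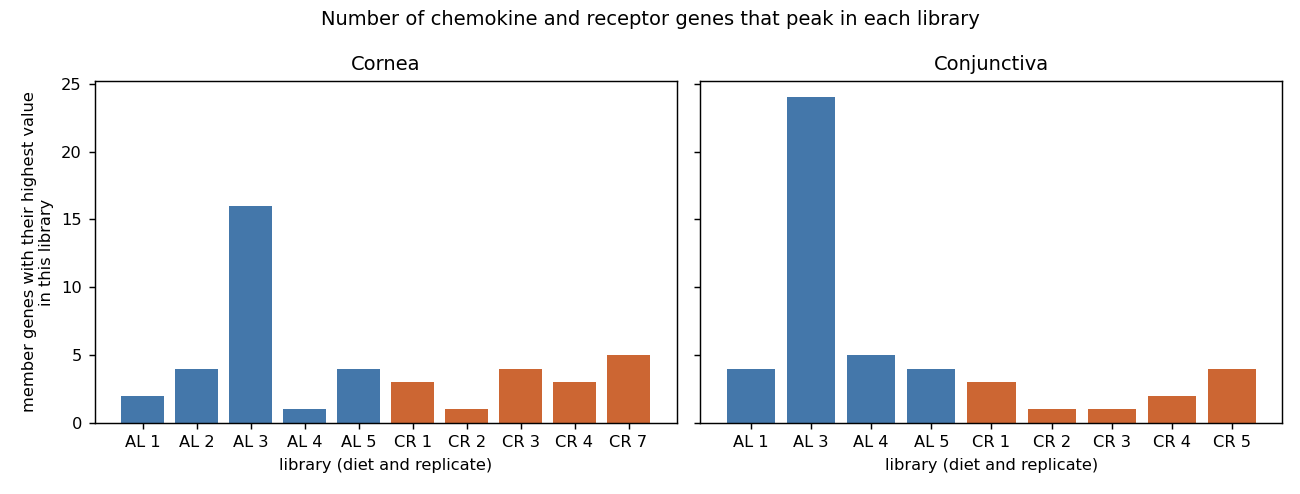
Number of chemokine and receptor genes with their highest value in each library, for the 10 cornea and the 9 conjunctiva libraries, with AL bars in blue and CR bars in orange. AL 3 held 16 such genes in the cornea and 24 in the conjunctiva, and no other library held more than 5.

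Marker lists of leukocytes and stroma were summed in each conjunctiva library. None reached an adjusted p under 0.05, which a single list could not reach over 26 tests with so few libraries. These adjusted p-values therefore do not show that the diets were alike. Single genes of the lists were called by limma, all lower in CR, against 0.359% of all genes tested. These were 1 of 4 tested dendritic and Langerhans cell markers, 1 of 7 MHC class II genes and 2 of 8 fibroblast markers. No gene of the other leukocyte and stroma lists was called. All 7 pan-leukocyte markers had a log2 change below 0 in CR, and their summed level was 1676 to 2198 in AL and 1018 to 1593 in CR (exact two-sided permutation p = 0.0159, 0.0825 after Benjamini-Hochberg adjustment over 26 such tests). All 11 macrophage markers were below 0, with sums of 4438 to 5584 in AL and 3024 to 4249 in CR (exact permutation p = 0.00794, the smallest that 4 against 5 libraries can give, adjusted 0.0688). All 7 MHC class II genes were below 0, with sums of 7526 to 11808 in AL and 5078 to 7411 in CR (exact permutation p = 0.00794, adjusted 0.0688). All 4 tested of the 6 dendritic and Langerhans cell markers were below 0, with sums of 161 to 197 and 49.5 to 163 (exact permutation p = 0.0238, adjusted 0.103). All 8 fibroblast markers were below 0, with sums of 41246 to 61871 in AL and 27059 to 53493 in CR (exact permutation p = 0.0476, adjusted 0.177). Endothelial markers summed to 2042 to 2909 in AL and 1131 to 3016 in CR (6 of 8 below 0), and B and plasma cell markers to 19.1 to 221 and 18.8 to 45.4. Neutrophil, T cell and NK cell markers overlapped between diets, with sums of 8.84 to 107, 49.4 to 107 and 26.9 to 61.8 in AL and 24.6 to 69.2, 49.9 to 88.8 and 23.8 to 113 in CR. The part of cell content in the chemokine values was not tested. Lacrimal gland markers in the conjunctiva summed to 55.5 to 278 in AL and 10.7 to 27.0 in CR, with Prol1 at 0. In the cornea, pan-leukocyte markers summed to 63.7 to 246 in AL and 30.7 to 102 in CR, with overlap. Macrophage markers there summed to 1435 to 1842 and 1177 to 1961, with 5 of 6 tested below 0 and 1 called as lower. Dendritic and Langerhans cell markers summed to 13.3 to 77.6 in AL and 2.83 to 17.5 in CR (exact permutation p = 0.0159, adjusted 0.0825). These overlapped, and only 1 of the 6 reached the minimum mean. MHC class II genes summed to 489 to 707 and 257 to 712, with 6 of 6 tested below 0.

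Genes that act with the chemokine system were described from a list of atypical receptors, regulators and signal transducers. In the conjunctiva 29 of 45 tested had a log2 change below 0, against 52% of all genes, and 0 were called. At an unadjusted p under 0.05 there were 5, all below 0, which is close to the 9.4% of all genes. These were the atypical receptors Ackr1 (159 ± 63.5 in AL, 76.0 ± 30.0 in CR) and Ackr3 (384 ± 63.6 and 257 ± 82.5), the platelet chemokine Pf4 (568 ± 30.7 and 427 ± 138), the leukocyte GTPase Rac2 (132 ± 22.5 and 51.6 ± 29.2, without overlap) and Cmtm3 (299 ± 24.0 and 209 ± 37.1, without overlap, which 3.87% of all genes shared). In the cornea 18 of 26 were below 0, against 53.1% of all genes, and 1 was called, against 1.22%: Gnai3, an inhibitory G protein subunit that chemokine receptors couple to, was at 822 ± 179 in AL and rose to 1359 ± 292 in CR (limma adjusted p = 0.0292, log2 change 0.72 ± 0.16). Among 15 tested inducers of chemokines, 12 were below 0 in the conjunctiva, against 52% of all genes, and 7 in the cornea, against 53.1%. None was called in either tissue by limma, against 0.359% and 1.22% of all genes. At an unadjusted limma p under 0.05, 4 in the conjunctiva were lower in CR and 0 higher, against 9.4% of all genes. Nfkb2, Irf1 and Irf7 were among these 4. In the cornea 3 were higher in CR (Nfkb1, Junb and Cebpb) and 1 was lower, against 18.1% of all genes. Ifng and Il17a had 0 reads in all libraries of both tissues.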

How the data were processed

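Cornea and conjunctiva of AL and CR mice were profiled by RNA sequencing in 19 libraries. By the methods of the study the authors trimmed reads with cutadapt, aligned them with STAR to mm10, counted them with HTSeq and divided the counts by DESeq2 size factors, whereas the submitters' processing notes name GRCm39 and DESeq2. The labels name a stranded kit and the methods an oligo(dT) kit of another maker, so that the use of strand is not settled. The deposited values are log2 of the normalized count plus 1, in a table per tissue scaled separately. All values correspond to whole reads, to within rounding.

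Groups were taken from the labels, and 0 unmapped columns were found. Of 24557 features, 24552 were used after 5 repeated symbols were removed. In each tissue, genes whose mean normalized count reached 10 were fitted with limma 3.58.1 (R 4.3.3, statmod 1.5.0, trend and robust) on the deposited log2 scale with its added count of 1, so that changes of low genes are understated. A call needed an adjusted p under 0.05 and a fold over 1.5. Sums over marker lists were tested by exact permutation of libraries, two-sided. The steps were tested on simulated data. Other settings tried were pseudocounts of 0.5 and 10, a minimum of 50 or none, quantile and TMM scaling, array weights, voom on the recovered reads, each library's share of undetected genes as covariate, a replicate block and leaving out each library.

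Values in every library are given for the 10 members with the highest mean in each tissue and for those among the 6 smallest unadjusted p, with others added after their values were seen. The members and lists were chosen with earlier results of these data known. The labels do not state whether libraries were pooled from several animals, and p-values measure the spread between these libraries. Coordinates and promoter sequences are those of GRCm38.p6, matched by symbol. Some genes that the counts include are not reported here.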

Additional observations from a re-analysis of the deposited data

Results flagged for a closer look

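Single libraries stood apart from the rest of their group in 17 of 94 groups of members examined, by a gap to the nearest library above Dixon's critical value. Chance flags about 1 in 20 groups of normally distributed values, a rate that does not hold for these linear, right-skewed counts. Members share libraries, so that these are not independent. Every one lay on the high side. In cornea AL 3, Ccl3 was at 115 normalized counts, Ccl4 at 122, Ccl6 at 143 and Cxcl2 at 784, where the next AL library had 0, 6.60, 74.3 and 101. Cxcl14 was at 39.8 in cornea AL 4 and Cxcl16 at 291 in cornea AL 2. In cornea CR 7, Ccl6 was at 368 and Cxcl16 at 503, and Ccr6 was at 29.6 in cornea CR 1. In conjunctiva AL 3, Ccl2 was at 185, Ccl24 at 302, Ccl7 at 218, Cxcl5 at 659 and the receptor Cxcr2 at 60.6. The B cell attractant Cxcl13 was at 569.6 in conjunctiva AL 5. In conjunctiva CR 5, Cxcl5 was at 162 and Cxcr2 at 167, where the next CR library had 49.7 and 23.4.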

How the results depend on the processing

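The number of members called was 0 in the cornea and became 1 (Cx3cl1) with a pseudocount of 10, a minimum mean of 50 and array weights, and ranged from 0 to 1 when single libraries were left out. In the conjunctiva it was 0 and became 2 (Ccl6 and Cxcl5) with array weights, and ranged from 0 to 2 with single libraries left out. The median log2 change of corneal members, −0.90, was 0.19 with a minimum of 50, where 5 members were tested, and −0.14 with each library's share of undetected genes as covariate, and ranged from −0.83 to 0.27 with single libraries left out (0.27 without AL 3, −0.29 without CR 3, −0.41 without AL 1). Over all genes, 150 called in the cornea became 705 with array weights, 62 with the covariate and 53 (without AL 5) to 536 (without AL 4) with single libraries left out, and 50 in the conjunctiva became 149 with array weights and 26 (without CR 2) to 127 (without CR 3). With the replicate block, 46 genes were called in the cornea and 10 in the conjunctiva, and 0 members. Deviations of libraries with the same number had correlations of −0.30 to 0.29 (cornea) and −0.06 to 0.05 (conjunctiva), so the numbers were not taken as pairs. The log2 changes of some members turned sign, and with the main settings no member was called. In the cornea Cxcl1 was at −0.00524 with a pseudocount of 10, −0.73 with array weights, −0.34 with the replicate block and −0.85 to 1.01 with single libraries left out. Cxcl16 was at −0.033 with array weights, −0.16 with the block and −0.11 to 0.35 with single libraries left out, and Ccl6 at −0.00374, −0.21 and −0.12 to 0.73. With the covariate Cxcl17 was at −0.14 and Ccr6 at 0.21. In the conjunctiva Cx3cl1 was at −0.030 with voom, −0.000212 with the covariate and −0.049 to 0.11 with single libraries left out, Cxcl12 at 0.11 with the covariate and −0.35 to 0.13, Ccl11 at 0.016 with the covariate and Cxcl17 at −0.15 to 0.052. Cx3cl1 of the cornea and Ccl6 and Cxcl5 of the conjunctiva passed the call threshold under the settings given with them above. Voom placed 64.1% of all conjunctiva genes below 0, against 52%, with a median of −0.11 over all genes and −0.64 over members. The difference between tissues had 0 members past the adjusted threshold under every alternative run. The cause of these shifts was not tested. Members below about 10 normalized counts are limited by depth, and an absence of calls does not show that diets were alike.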
